A study of Mus musculus with 2 samples.

Results

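Small nucleolar RNA (snoRNA) genes are the gene family described here, in 1 library of cultured cells from sham-irradiated mice and 1 library from irradiated mice. The members were chosen by symbol alone, as every gene of the table named Snora or Snord followed by a number, and 102 of the 24091 listed genes met this rule. Of the 102 members, 34 carry Snora symbols, used for snoRNAs of the box H/ACA class, and 68 carry Snord symbols, used for the box C/D class. The family was proposed with earlier values of Snora2b, Snord52 and Snord72 known, so the differences of these 3 genes were partly what drew attention to it and are given as description.

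Both libraries came from C57BL/6 mice and are labelled as primary adipocytes. Gonadal fat was digested with collagenase, and the floating fraction was kept and cultured for 3 days. The irradiated mice had received pelvic radiation, given in the labels as 7.5 Gy and 5 days, with wording that leaves unclear whether 7.5 Gy was the daily or the total dose, and fat was collected 2 months later. The sham-irradiated mice are labelled as having had no radiation. Both titles also name PBS, without saying what was given. The labels do not give the number of mice behind a library, and no replicate exists for either condition, so every difference below compares 2 libraries (called the sham and the irradiated library), carries no p-value, and has no replicate spread to be set against.

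SnoRNAs are short RNAs of the nucleolus that guide chemical modification of ribosomal RNA by base pairing. Box C/D snoRNAs assemble with fibrillarin, Nop56, Nop58 and Snu13 and direct 2′-O-methylation of ribose, while box H/ACA snoRNAs assemble with dyskerin (Dkc1), Gar1, Nhp2 and Nop10 and direct the conversion of uridine to pseudouridine. In mammals most are processed from introns of host genes, many of which encode ribosomal proteins or other parts of the translation machinery, after the spliced intron is opened by the debranching enzyme Dbr1. The mature forms have no poly(A) tail, and the libraries described here were made from polyadenylated RNA.

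The sequences of 7 members are shown because their values carry the comparisons below: Snora2b, Snora31 and Snord52 are those whose counting interval lay on 1 side of 0, Snord72 had a difference close to that of Snord52, and Snora65, Snord104 and Snord12 were among the members with the most fragments. They were taken from GENCODE vM21 transcripts on GRCm38 and are written 5′ to 3′ along the transcript. Capitals mark the ACA that lies 3 bases before the 3′ end in box H/ACA members, and, in box C/D members, TGATGA (the C box) within the first 20 bases and CTGA (the D box) within the last 15 bases, all searched on the transcript strand only. Snora2b lies at chr15:98526346-98526482 on the minus strand, Snora31 at chr14:75847905-75848034 on the plus strand, Snora65 at chr2:32963291-32963420 on the plus strand, Snord52 at chr17:34950952-34951017 on the minus strand, Snord72 at chr15:5118404-5118484 on the plus strand, Snord104 at chr11:106500993-106501062 on the plus strand, and Snord12 at chr2:167065276-167065365 on the plus strand.
Snora2b: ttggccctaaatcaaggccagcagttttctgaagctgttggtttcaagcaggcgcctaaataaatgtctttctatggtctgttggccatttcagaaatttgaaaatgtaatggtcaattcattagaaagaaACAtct
Snora31: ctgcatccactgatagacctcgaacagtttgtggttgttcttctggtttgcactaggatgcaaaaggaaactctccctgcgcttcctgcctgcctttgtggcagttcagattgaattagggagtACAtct
Snora65: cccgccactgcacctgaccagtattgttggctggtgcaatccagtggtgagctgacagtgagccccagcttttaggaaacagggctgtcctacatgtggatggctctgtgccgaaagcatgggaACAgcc
Snord52: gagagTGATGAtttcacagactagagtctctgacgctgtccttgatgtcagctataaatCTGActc
Snord72: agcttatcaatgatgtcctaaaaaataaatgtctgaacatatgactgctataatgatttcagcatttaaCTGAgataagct
Snord104: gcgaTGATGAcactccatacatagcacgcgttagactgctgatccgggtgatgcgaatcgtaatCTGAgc
Snord12: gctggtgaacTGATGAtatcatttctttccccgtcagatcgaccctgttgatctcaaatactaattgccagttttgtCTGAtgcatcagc

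The 2 classes are named after these boxes, so their separation by these letters was fixed in advance. The shares only say how often the windows held them. Of the 62 box C/D members with a transcript at their own locus, 56 (90.3%) held CTGA and 37 (59.7%) held TGATGA in these windows, and none held the ACA. Of the 34 box H/ACA members, 28 (82.4%) held the ACA, 2 held CTGA and none held TGATGA. Among all 1507 GENCODE snoRNA transcripts under 400 bases, 31.4% held CTGA, 21.7% TGATGA and 18.3% the ACA, and among 2201 miRNA transcripts of the same length limit the shares were 6.18%, 0.182% and 3.27%. Snord72 lacks a TGATGA in its window, and a missing match says only that these letters are not there.

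The values of the table are fragments per kilobase of gene and per 1000000 fragments (FPKM), deposited as log2(FPKM + 0.1). Low values fell on steps worth 1 fragment each, from which a total of 30600000 fragments was recovered for the sham library, a total of 35000000 for the irradiated library, and the number on every gene. Over genes that reached an FPKM of 1 in both libraries the median difference was 0.02 on the log2 scale. Markers of the labelled cell type were divided. Of 8 adipocyte markers, 5 stayed below an FPKM of 1 in each library, with Adipoq at 0.133 and 0.232 and Lep listed at 0 in the sham library. The other 3 were higher, with Fabp4 at 96.91 in both, Lpl at 68.02 and 66.62, and Pparg at 4.591 and 4.69. The fibroblast collagen gene Col1a1 stood at 1937 and 1428. In such bulk values fewer cells of a type and less RNA per cell cannot be told apart.

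The table's entries are often not the whole snoRNA. Of the 102 entries, 96 lay at the GENCODE locus of the same name, and only 17 of these covered every base of the annotated gene. Another 55 of the 96 lacked at least 10 bases, and 25 lacked at least 20, with a median of 11.5 bases missing and a largest gap of 68 bases. Snora2b was counted over 112 of 137 annotated bases, Snord52 over 57 of 66, and Snord43 over 48 of 108. Another 4 symbols stood somewhere else in the genome: Snord14a, Snord14d, Snord53 and Snord118 were given on other chromosomes than their annotated genes, on entries of 21, 22, 19 and 43 bases. The entries of Snord116 and Snord58b each ran over several loci. Snord96a (1173 bases) and Snord88a (2294 bases) were much longer than a snoRNA, and Snord96a overlapped exons of its host gene Rack1, so the values of these 8 entries cannot be read as the level of the named snoRNA.

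Most members had fragments, but few of them. At least 1 fragment was present for 71 of 102 members (69.6%) in the sham library and for 75 (73.5%) in the irradiated library, with 66 detected in both and 22 in neither. Over all 24091 listed genes the shares were similar, 68.2% and 69.5%, and the irradiated library was the deeper one. A member had a median of 2 fragments in the sham library and 3 in the irradiated library, where the median listed gene had 36 and 47. No member exceeded 38 fragments in the sham library or 47 in the irradiated library, the first reached by Snora65 and the second by Snora65 and Snora28. At least 3 fragments were present for 48 and 52 members. Detection was nevertheless much more frequent than for the other 1127 listed genes under 0.3 kb (1036 of them miRNA genes), of which 114 (10.1%) and 123 (10.9%) had a fragment.

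What a single fragment is worth depends on the length of the entry. Entries of members had a median of 79.5 bases, against 2410 for all genes. On a 58-base entry such as that of Snord52, 1 fragment equals an FPKM of 0.564 in the sham library and 0.493 in the irradiated library, and an FPKM of 1 is reached with 2 and 3 fragments. On a gene of 1000 bases 1 fragment equals 0.0327 and 0.0286, and an FPKM of 1 takes 31 and 36 fragments. The same FPKM thus stands for far fewer fragments on a snoRNA gene than on an ordinary gene. The extreme case was the 21-base entry named Snord14a, whose 15 and 18 fragments gave the highest FPKM values of the family, 23.33 and 24.49.

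**Figure D1:**
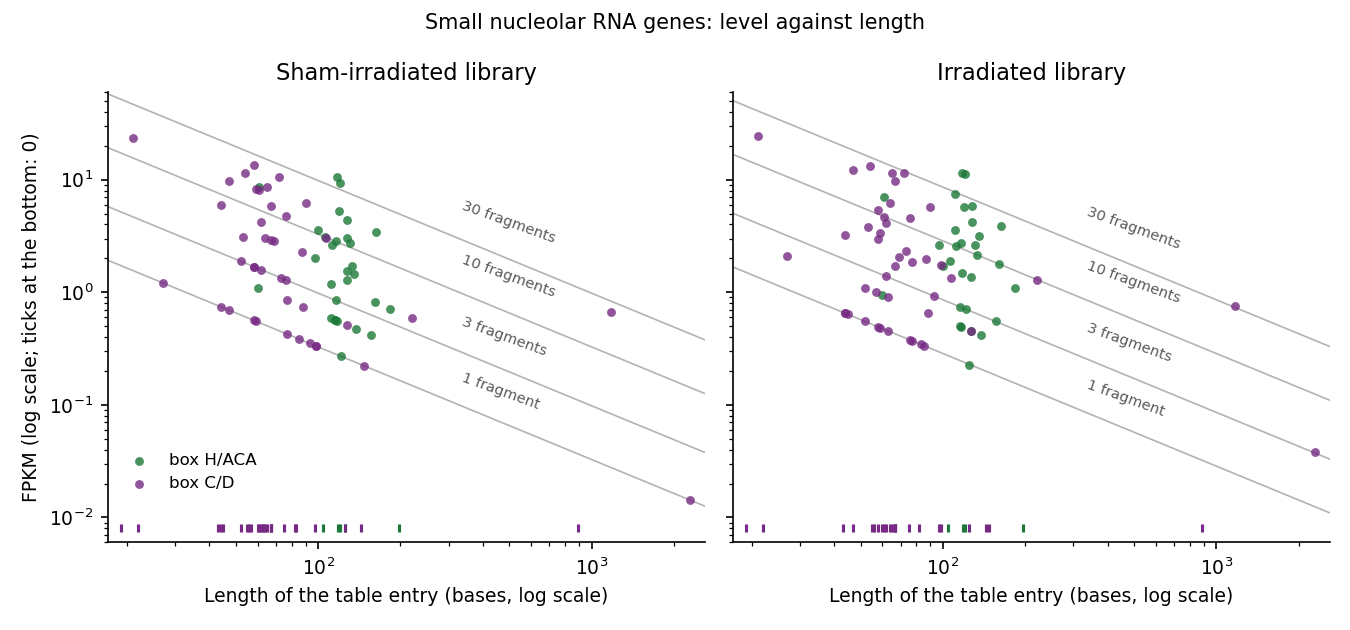
FPKM (log scale) of each snoRNA gene against the length of its table entry in bases (log scale), in the sham library (left) and the irradiated library (right), with box H/ACA members in green, box C/D members in purple, and members without a fragment as ticks at the bottom. Grey lines join the FPKM values that 1, 3, 10 and 30 fragments give at each length, and most members lie between the lines of 1 and 30 fragments.

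Across single members, the length of the entry and its FPKM were nearly unrelated in rank. Over the 100 members whose length equals their coordinate span, Spearman's rho between length and fragments was 0.191 in the sham library and 0.239 in the irradiated library, and between length and FPKM 0.001 and 0.008. These points share the same 2 libraries, include the long entries of Snord96a and Snord88a, and are a description only. Box H/ACA members, with a median entry of 119.5 bases, were detected in 85.3% and 88.2% of cases, and box C/D members, with a median of 64.5 bases, in 61.8% and 66.2%. The longer class also had the higher median FPKM, 1.23 and 1.75 for box H/ACA against 0.535 and 0.642 for box C/D.

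Snora65 and Snora28 had the most fragments of the family. Snora65, a box H/ACA snoRNA in the ribosomal protein gene Rpl12, had 38 fragments (FPKM 10.6) in the sham library and 47 (11.45) in the irradiated library, a difference of 0.11 with a counting interval from -0.54 to 0.77. This interval is the exact 95% binomial interval of the log2 ratio of fragments per library total, and it covers counting error only, not the variation between mice or cultures. Snora28, in the translation initiation factor gene Eif5, had 34 and 47 fragments (FPKM 9.283 and 11.21, difference 0.27, interval -0.40 to 0.95). Both members were close in the 2 libraries, and even their intervals span more than 1 unit on the log2 scale.

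Other members near the top were also alike in both libraries as far as their counts can tell. Snord104, a box C/D snoRNA outside the listed host genes, had 23 and 29 fragments (FPKM 10.46 and 11.53). Snord42b in Rpl23a had 19 and 25 (FPKM 11.53 and 13.26), and Snord12 in the noncoding host Zfas1 had 17 and 26 (FPKM 8.534 and 11.45). The box H/ACA members Snora70 in Rpl10, Snora3 in Rpl27a and Snora81 in the helicase gene Eif4a2 had 17 and 26, 19 and 24, and 17 and 22 fragments. All 6 intervals included 0, with differences between 0.14 and 0.42, so a shift of this size cannot be separated from counting error.

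Several well-known members had no fragment or almost none. In libraries of polyadenylated RNA this does not show that they were absent from the cells. Rpl13a carries Snord33, Snord34 and Snord35a, box C/D snoRNAs known from work on lipotoxic stress. Its own FPKM was 396.1 and 374.7, yet Snord33 and Snord35a had 2 fragments each in each library and Snord34 had none. Snord22 (U22), which takes part in maturation of the small ribosomal subunit RNA, had no fragment on its complete 126-base gene, where 3 fragments, the limit that a count of 0 allows, equal an FPKM of 0.785 and 0.686. Snord116, the cluster of the Prader-Willi region expressed mainly in neurons, had no fragment on its composite entry, with a limit of 0.110 and 0.0963. Snora35, within the serotonin receptor gene Htr2c, had none either, and Htr2c was itself listed at 0 in both libraries. The entry named Snord118 (U8) was also at 0, but it does not lie at the U8 gene.

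In these libraries of polyadenylated RNA, a snoRNA gene and its host gene had very different FPKM values. Mature snoRNAs have no poly(A) tail, so the values below cannot be read as amounts of snoRNA and host RNA in the cells. A same-strand host was listed for 93 members, on 69 host genes, and 91 of the 93 had a lower FPKM than their host in each library. The median member stood at 0.606% of its host's FPKM in the sham library and 1.03% in the irradiated library. The exceptions were Snora35, with both genes at 0, and the misplaced Snord14a entry. The 29 members within 21 ribosomal protein genes had median FPKM values of 1.55 and 1.35 while their hosts had medians of 468 and 452. In the noncoding hosts Gas5 and the Snhg genes, whose best known products are their snoRNAs, 11 members had medians of 1.34 and 1.97 against host medians of 10.9 and 11.5. Members of these groups thus had similar medians on hosts at very different levels. Split by host level alone, the 38 members of hosts above 100 FPKM in both libraries had medians of 0.797 and 0.851. The 38 members of hosts under 30 FPKM in both had lower medians, 0.379 and 0.571. Across the 93 members Spearman's rho between member and host was 0.263 and 0.19 (Pearson's r 0.285 and 0.211 on the log2 scale), given as a description of points that share libraries and in part hosts.

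**Figure D2:**
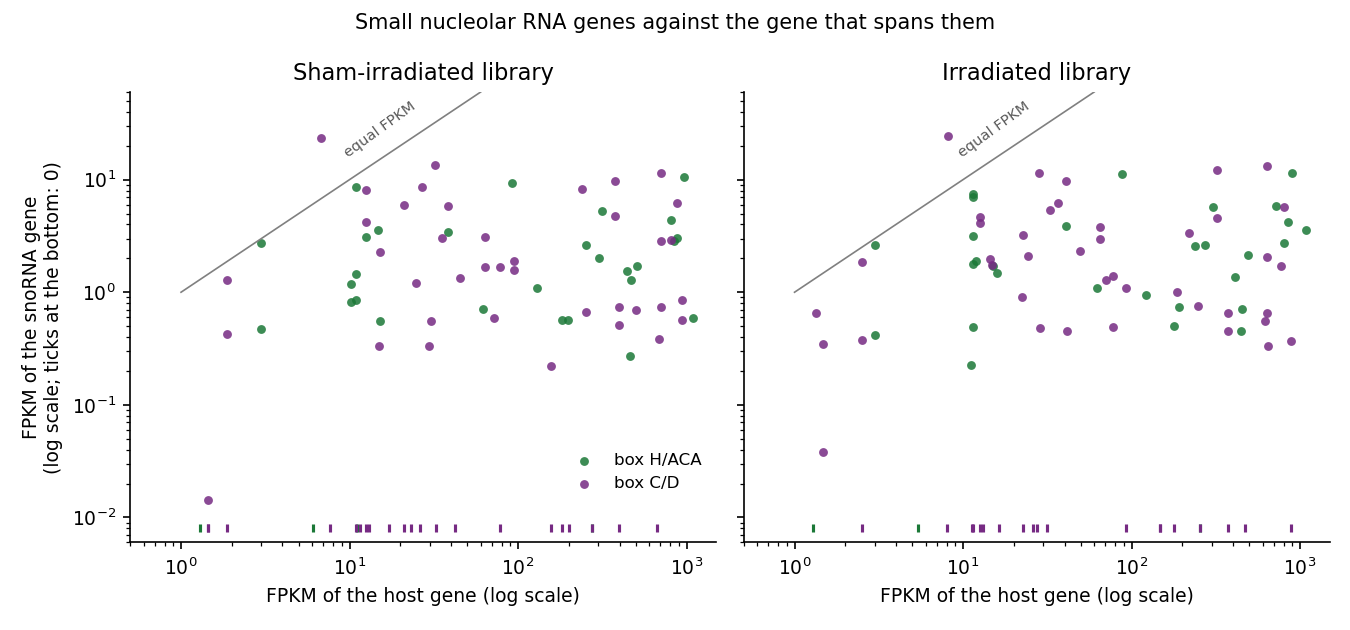
FPKM of each snoRNA gene against the FPKM of the listed gene that spans it on the same strand, both on log scales, in the sham library (left) and the irradiated library (right), with members without a fragment as ticks at the bottom and Snora35, whose host is at 0, left out. Apart from the misplaced Snord14a entry, all points lie below the line of equal FPKM, and members of hosts near 10 FPKM reach the same range as members of hosts near 1000.

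Members of the same host were not equal. In Snhg12, Snora61 had 16 and 15 fragments, Snora16a 6 and 15, Snora44 3 and 2, and Snord99 none. In Rpl23a, Snord42b had 19 and 25 fragments, Snord4a 6 and 5, and Snord42a 1 and 1. The noncoding gene 2410006H16Rik carried Snord49a with 15 and 10 fragments, Snord49b with 8 and 9, and Snord65 with none. Per length of entry, Snora61 was above Snora16a in both libraries (FPKM 8.594 and 7.011 against 1.458 and 3.172). In the irradiated library both had 15 fragments, so the gap there came from entry lengths of 61 and 135 bases. The Snora61 entry covers 62 of 130 annotated bases. These contrasts are between entries that cover different shares of their snoRNA.

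Where the annotation places an exon of another transcript over the snoRNA, fragments were denser. Of the 102 members, 46 overlapped an exon of another same-strand gene, mostly in host transcripts that GENCODE records as retaining the intron, and 48 lay in introns only. Limited to entries under 0.3 kb at their own locus, 44 exon-overlapping members (33 of them in retained-intron transcripts) had 324 and 436 fragments over 4111 bases, an FPKM of 2.58 and 3.03 for the sum. The 47 intron-only members had 155 and 186 fragments over 4109 bases, an FPKM of 1.23 and 1.29. At least 20 fragments over both libraries were present for 16 of the first and 4 of the second. A fragment of the snoRNA itself and a fragment of a host transcript that still holds the intron cannot be told apart in these values.

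For the comparison of irradiated with sham-irradiated cells, the 54 members that reached an FPKM of 1 in either library were set beside the 11253 genes of the whole table that met the same limit. A difference is the irradiated minus the sham value on the deposited log2(FPKM + 0.1) scale. Of the 54 members, 11 (20.4%) were higher by at least 1, where 0.791% of all genes were, and 8 (14.8%) were lower by at least 1, where 0.373% of all genes were. Members made up 0.48% of the genes compared and 14.5% of the 131 genes past 1 in either direction. The typical size of a member's difference, disregarding sign, had a median of 0.705 against 0.1 for all genes, while the signed median was 0.14 against 0.02.

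Small numbers of fragments went with these shares. Of the 19 members past 1, 14 had fewer than 20 fragments over both libraries, and 8 of the 11 higher and 4 of the 8 lower ones entered the comparison only through the library where they were higher, being under an FPKM of 1 in the other. Among all 11253 genes only 65 had fewer than 20 fragments, all 65 were shorter than 0.3 kb, and 31 of them were members. The 46 other genes under 0.3 kb behaved in a similar manner, with 6 (13.0%) higher and 11 (23.9%) lower by at least 1 and a median size of 0.545. Among the 40 members that reached an FPKM of 1 in both libraries, 7 (17.5%) were past 1, against 0.559% of 10907 genes.

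By counting interval the picture was the opposite. The interval lay above 0 for 2 of 54 members (3.7%), where it did so for 23.8% of all genes, and below 0 for 1 (1.85%), where it did so for 17.4%. An interval above 0 at a difference near 1 takes 13 fragments against 30, and at a difference near 2 takes 3 against 14. In the other direction 26 against 15, or 14 against 4, are needed. Only 24 members had 20 fragments or more over both libraries. A member without such an interval may still differ, since most could not have shown a difference of 1 at this depth.

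**Figure D3:**
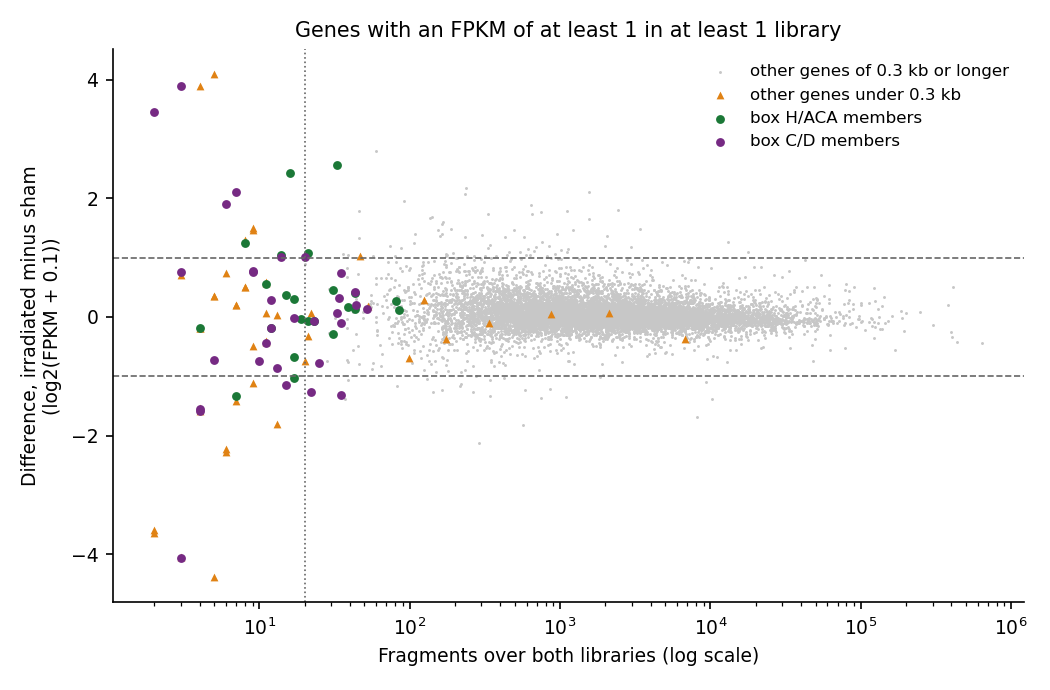
Difference between the libraries (irradiated minus sham, log2(FPKM + 0.1)) against the fragments of both libraries together (log scale), for all genes that reached an FPKM of 1 in either library, with box H/ACA members in green, box C/D members in purple, other genes under 0.3 kb in orange, and all others in grey. The dashed lines mark 1 and -1 and the dotted line 20 fragments, and 14 of the 19 members outside the dashed lines lie to the left of the dotted line.

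Snora2b had the clearest difference of the family. This box H/ACA member had 4 fragments (FPKM 1.175) in the sham library and 29 (7.468) in the irradiated library, a difference of 2.57 with a counting interval from 1.15 to 4.63. It lies in Kansl2, which encodes a subunit of a histone acetyltransferase complex, and overlaps a transcript of that gene annotated as retaining the intron. Kansl2 itself was at 10.24 and 11.45, a difference of 0.16 (interval 0.05 to 0.27). The second snoRNA of the same host, Snora34, had 4 and 10 fragments, with a difference of 1.04 and an interval from -0.67 to 3.25.

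Snora31 was the other member with an interval above 0. It had 2 fragments (FPKM 0.588) in the sham library and 14 (3.606) in the irradiated library, a difference of 2.43 with an interval from 0.49 to 5.79. Its host Tpt1, which encodes the abundant translationally controlled tumour protein, was at 1097 and 1082. Here the value rests on a sham-irradiated count of 2. Both members are box H/ACA snoRNAs whose hosts differed by 0.16 and -0.02.

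Snord52 was the only member with an interval below 0. It had 24 fragments (FPKM 13.54) in the sham library and 11 (5.402) in the irradiated library, a difference of -1.31 with an interval from -2.50 to -0.24. Its host, the noncoding gene 1110038B12Rik, was at 32.35 and 33.03. Snord72, in the ribosomal protein gene Rpl37, had 15 and 7 fragments (FPKM 8.298 and 3.382), and its difference of -1.27 had an interval from -2.83 to 0.09 that included 0. Rpl37 was at 240.4 and 219.7. Among members of at least 20 fragments, Snord49a came next at 15 and 10 fragments, a difference of -0.77.

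Members at a difference near 1 were not separated from 0. Snora16a in Snhg12 had 6 and 15 fragments (difference 1.07, interval -0.32 to 2.78), and Snord47 in Gas5 had 6 and 14 (1.01, -0.44 to 2.69). Snord2 in Eif4a2 had 12 and 23 fragments (0.74), and Snora7a in Rpl32 had 12 and 19 (0.46). Snora61 and Snord16a, at 16 and 15 and at 17 and 18 fragments, were among the members of 20 fragments or more with a negative difference (-0.29 and -0.11). For none of these 6 did the interval leave out 0.

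**Figure D4:**
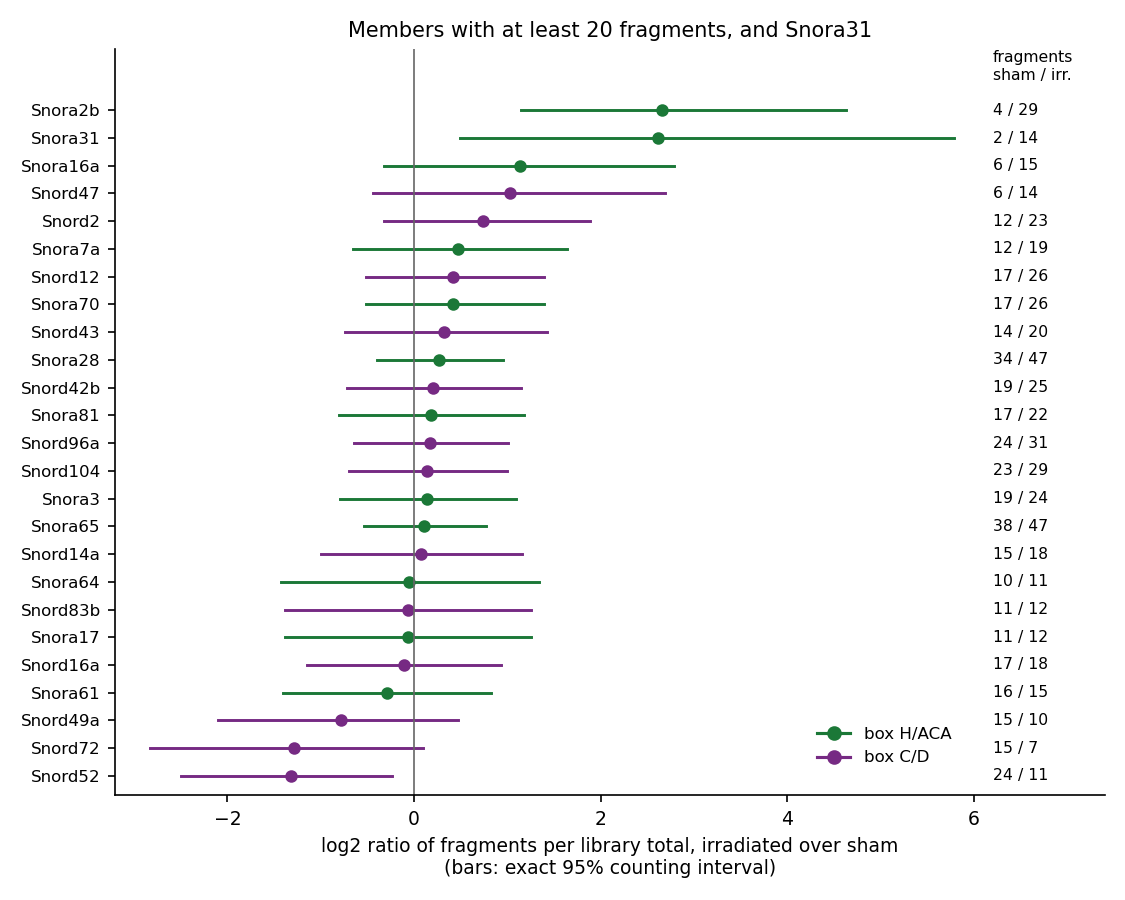
Log2 ratio of fragments per library total, irradiated over sham, with its exact 95% counting interval, for the 24 members with at least 20 fragments over both libraries and for Snora31, in green for box H/ACA and purple for box C/D, with the fragments of each library at the right. Only Snora2b and Snora31 lie wholly above 0 and only Snord52 wholly below. Snora31, with 16 fragments over both libraries, was added because of its interval.

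The largest deposited differences were those with the fewest fragments. Snord11 in Nop58 had 3 fragments in the sham library and none in the irradiated library (-4.07), Snord57 in Nop56 had none and 3 (3.89), and Snord66 in Eif4g1 had none and 2 (3.46). No fold is given for them, because both counts are at or under the 3 fragments that a count of 0 allows. Across the family 5 members were detected in the sham library alone and 9 in the irradiated library alone, none with more than 3 fragments. Over all 24091 listed genes these numbers were 580 and 877, and the irradiated library was the deeper one.

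Summed over the family, the 2 libraries were close. All 102 members together had 565 fragments, or 18.48 per 1000000 (95% exact interval 16.98 to 20.07), in the sham library and 722, or 20.63 per 1000000 (19.15 to 22.19), in the irradiated library. The log2 ratio was 0.159, with an interval from -0.002 to 0.32 that included 0. For the 96 members at their GENCODE locus the ratio was 0.177, with an interval from 0.013 to 0.342 that did not. This subset was chosen after seeing the data and still holds Snora2b, Snord96a and Snord88a. Over the 101 members other than Snora2b the ratio was 0.11, with an interval from -0.053 to 0.273 that included 0. Box H/ACA members had 264 and 372 fragments, a ratio of 0.30 (0.068 to 0.533), and box C/D members 301 and 350, a ratio of 0.023 (-0.204 to 0.25). The box H/ACA ratio rested in part on Snora2b and Snora31, which were left out because of their values. Without Snora2b it was 0.205, with an interval from -0.032 to 0.443. Without Snora2b and Snora31 it was 0.156, with an interval from -0.084 to 0.396. Whether the classes differ from each other was not tested.

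No host gene was past 1 in either direction, where only 1.16% of all genes compared were. Differences of the 69 hosts of members lay between -0.23 and 0.40 with a median of -0.04. By counting interval 30 of the 69 hosts were lower and 5 higher, beside 17.4% and 23.8% of all genes. All 21 ribosomal protein hosts had a negative difference, from -0.23 to -0.03, and the interval was below 0 for 20 of them. At such high levels the interval left out 0 even for small differences, as for Rpl23 (-0.06, interval -0.09 to -0.03). Rpl3, the host of Snord43 and Snord83b, had the lowest (374.7 and 319.5, interval -0.26 to -0.20), and 1810032O08Rik, the host of Snord1a, Snord1b and Snord1c, the highest (0.40, interval 0.07 to 0.78). Of 16 listed Snhg and Gas5 genes, 14 reached an FPKM of 1 in either library and none was past 1 in either direction. By counting interval, Snhg15 was higher (FPKM 10.1 and 12.99, difference 0.36) and Snhg5 lower (23.16 and 18.67, -0.31). Neither is the host of a member listed here.

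The proteins that snoRNAs assemble with were at nearly the same level in both libraries. None of 8 core proteins was past 1, where only 1.16% of all genes compared were, and their differences ran from -0.19 to 0.05. Fibrillarin (Fbl), the methyltransferase of box C/D particles, was at 74.44 and 69.45, and dyskerin (Dkc1), the pseudouridine synthase of box H/ACA particles, at 34.92 and 34.2. Gar1, another box H/ACA protein, had the lowest difference (21.46 and 18.8, -0.19), and its interval and that of Fbl (-0.10) lay below 0. Among 13 genes for assembly and transport none was past 1. Znhit6, a factor of box C/D assembly, was at 9.026 and 10.46 (0.21, interval above 0), and Nolc1, a nucleolar chaperone, at 42.12 and 40.12 (-0.07, interval below 0). Dbr1 was at 9.348 and 9.749.

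Markers of some cell types also differed between the libraries. All 4 mesothelial markers were higher in the irradiated library, by 0.80 to 2.18, with a summed FPKM of 6.756 and 15.3. Of 5 macrophage markers 3 had an interval above 0 and 1 below, and of 6 fibroblast markers 4 had one below 0, with summed FPKM values of 540.6 and 558.2 and of 4261 and 3357. Of 3 endothelial markers 2 had an interval above 0. Over all genes compared the interval lay above 0 for 23.8% and below 0 for 17.4%. At high fragment numbers it left out 0 even for small differences, as for the macrophage marker Lyz2 (-0.11, interval -0.14 to -0.08). The part of cell makeup in the differences of snoRNA genes was not tested.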

How the data were processed

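RNA sequencing of 2 libraries, 1 sham-irradiated (labelled as no radiation) and 1 irradiated, was analysed. The values the authors deposited are log2(FPKM + 0.1) with 2 decimals, beside coordinates and lengths. The submitters' processing notes name mm10, while aligner, counter and annotation were not given in the sources used here. The kit was stranded and took polyadenylated RNA, per the labels, but whether counting used strand is not stated, so 5 members that overlap an exon on the opposite strand are uncertain. Sequence copies among short transcripts were found for 7 members (Snora30, Snora41, Snora5c, Snora65, Snora81, Snord1b and Snord1c), whose fragments may have been split.

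FPKM was recovered from the deposited values, and library totals as those for which low genes gave whole fragments (2211 and 2087 genes, all within 0.12). Totals cover all fragments, of which 86.8% and 86.9% lay on listed genes. Recovery was tested on simulated data. The deposited lengths are stop minus start for 100 of 102 members. Ratios carry exact 95% Clopper-Pearson intervals, for counting error only, and no p-value was computed. Loci, hosts, exons and sequences came from GENCODE vM21 (GRCm38).

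The members and lists were chosen with earlier results of these data known. Named members were the 10 with the most fragments, the 5 largest differences each way among members of at least 20 fragments, members with an interval on 1 side of 0, a list of well-known snoRNAs, and Snora2b, Snord52 and Snord72. Others (such as Snord11, Snord57, Snord66, Snora34, Snora35 and members sharing a host) were named after their values were seen. Alternatives were the pseudocount, the filter on low values, the threshold, the scaling, the definition of detection and the host. Limiting the members to those at their GENCODE locus and leaving out Snora2b, alone or with Snora31, were chosen after seeing the data. The tools were SciPy 1.17.1, pandas 2.3.3, numpy 2.4.6 and matplotlib 3.10.9 in Python 3.11.15.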

Additional observations from a re-analysis of the deposited data

How the results depend on the processing

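The numbers of members higher and lower by at least 1, 11 and 8 as reported, depended on how low values were treated. They were 6 and 3 with log2(FPKM + 1) (0.258% and 0.151% of all genes compared), 20 and 13 of 102 with no filter (1.11% and 0.614%), 2 and 2 of 18 with an FPKM of at least 5 (0.305% and 0.133%), 3 and 2 of 24 with at least 20 fragments (0.902% and 0.315%), 5 and 1 with a threshold of 2 (0.0978% and 0.0711%), and 2 and 1 by counting interval (23.8% and 17.4%). They were 9 and 8 after centring (0.738% and 0.382%) or after scaling without the 100 most abundant genes (0.738% and 0.373%). For members at their GENCODE locus they were 11 and 7 of 52, beside the 0.791% and 0.373% of all genes in the main comparison. The median difference of 0.14 ranged from 0.0 to 0.155, and the mean was 0.19. The summed log2 ratio of 0.16 was 0.18 for members at their locus, where its interval (0.013 to 0.342) no longer included 0. Over all members other than Snora2b the summed ratio was 0.11 (-0.053 to 0.273). Without Snora2b the box H/ACA ratio fell from 0.30 to 0.2 and its interval then included 0. Without Snora2b and Snora31 the box H/ACA ratio was 0.156 (-0.084 to 0.396). Members with at least 3 fragments numbered 48 and 52, against 71 and 75 with at least 1. None of the 24 named members changed sign under another pseudocount or scaling, which says little. Another pseudocount cannot change the sign of a difference. The scalings moved differences only slightly, with a median of 0.02 removed by centring and a shift of -0.014 without the 100 most abundant genes. Depth limits all of this, since 31 of the 54 members compared had fewer than 20 fragments. No paired analysis was possible because there was only 1 library per condition.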

Other observations

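Small Cajal body RNAs, relatives of snoRNAs that guide modification of spliceosomal RNAs, were also sparse, with a median of 1 fragment in each library. The 9 listed Scarna genes had 10 fragments in the sham library and 16 in the irradiated one, a log2 ratio of 0.483 with a counting interval from -0.746 to 1.785. Scarna17 had the most, at 4 and 7 fragments (FPKM 2.15 and 3.287), and Scarna10 had none.

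Among the 1036 listed miRNA genes under 0.3 kb, 91 and 99 had a fragment. A few of them held far more fragments than any snoRNA gene. Mir6236, a 122-base entry, had 3589 and 3179 fragments (FPKM 962 and 744.3, difference -0.37, counting interval -0.44 to -0.30). Mir703 had 400 and 474, and Mir7688 had 162 and 173. Mir568 (58 and 41 fragments, interval -1.31 to -0.09) and Mir692-3 (14 and 33, interval 0.10 to 2.06) were also on 1 side of 0, as was Mir3060, with 5 fragments and none. All of these were singled out once their values were known, and whether the fragments belong to the miRNA precursors was not tested.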
